A study of Mus musculus with 4 samples.

Results

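The heat shock genes described here were Hspa1a, Hspa1b, Hsph1, Dnajb1, Dnaja1, Hsp90aa1, Hspa8, Hspe1, Hspd1 and Hspb1. They were found by gene symbol in the feature tables of 4 single-cell RNA-Seq libraries of mouse bone, where each of the 10 symbols had 1 row, so the set was 10 of 32285 genes. The libraries came from C57BL/6J male mice 20 weeks old and were collected at week 2. A GC library (glucocorticoid, prednisolone at 6.25 mg/kg/d) and a control library were made from fracture callus, the repair tissue at a broken bone, and another pair from trabecular bone. GEO's labels give a slow-release pellet under the skin and a placebo pellet for all samples, whereas the study's methods describe daily injection for the fracture model. The number of mice behind each library was not given in the sources used here. The comparison asks how the levels of these genes differed between cell classes, between the 2 tissues, and between GC-treated and control mice.

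Each group was 1 library. There was thus no replicate and no test between conditions, and the intervals below are 95% intervals that cover counting error only. Levels are given as CPM, a gene's UMIs (counted RNA molecules) per 1000000 UMIs of the cells named, with an exact Poisson interval. In a level summed over cells of mixed type, fewer cells of a type and less RNA per cell cannot be told apart.

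Heat shock proteins are chaperones, which help other proteins to fold and keep damaged ones from clumping. Hspa1a and Hspa1b encode nearly identical stress-inducible forms of HSP70, Hspa8 encodes the form of HSP70 that cells make at all times, and Hsp90aa1 encodes an HSP90. Dnajb1 and Dnaja1 (HSP40 proteins) pass clients to HSP70, and Hsph1 (HSP110) helps HSP70 exchange its nucleotide. Hspb1 encodes a small heat shock protein that binds unfolding proteins. Hspd1 (HSP60) and Hspe1 (HSP10) form the mitochondrial chaperonin, so these 2 genes do not belong to the cytosol. The transcription factor HSF1 induces many of these genes under stress, including stress of tissue digestion, by binding inverted repeats of the letters GAA. The glucocorticoid receptor is itself a client of the HSP70 and HSP90 machinery before it binds its hormone.

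The promoters that hold such a repeat are shown because they set the stress-inducible genes beside each other. RefSeq windows (build GRCm38.p6, 250 bases before to 50 after a start) were matched for 8 of the 10 genes and gave 13 windows; Hspa8 and Hsp90aa1 were not matched. The motifs searched were GAANNTTC and TTCNNGAA, each of which is its own reverse complement and so was searched on both strands. A match was found in 8 windows, which belonged to 7 genes, all matched genes except Dnajb1. Over all 32851 promoter windows, 7.86% held GAANNTTC, 8.52% held TTCNNGAA and 15.1% held either. A match is a description of letters, not a binding site. The 160 bases before the start are printed 5′ to 3′ on the gene's strand, with the matches in capitals.
Hspa1a, chr17:34972157-34972316, minus strand: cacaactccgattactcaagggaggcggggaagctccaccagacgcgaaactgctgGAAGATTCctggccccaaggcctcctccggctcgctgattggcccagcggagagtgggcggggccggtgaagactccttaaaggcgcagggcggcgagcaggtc
Hspa1b, chr17:34959239-34959398, minus strand: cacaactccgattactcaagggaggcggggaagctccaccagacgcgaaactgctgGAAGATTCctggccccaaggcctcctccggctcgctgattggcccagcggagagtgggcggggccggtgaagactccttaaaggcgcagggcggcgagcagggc
Hsph1, chr5:149636337-149636496, minus strand: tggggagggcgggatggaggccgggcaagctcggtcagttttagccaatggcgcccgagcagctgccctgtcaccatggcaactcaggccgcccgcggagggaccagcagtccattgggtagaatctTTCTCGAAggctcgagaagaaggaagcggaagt
Dnaja1, chr4:40722308-40722467, plus strand: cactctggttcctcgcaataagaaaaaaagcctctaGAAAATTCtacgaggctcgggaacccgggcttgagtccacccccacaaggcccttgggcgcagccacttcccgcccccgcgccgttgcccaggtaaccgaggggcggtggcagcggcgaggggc
Hspe1, chr1:55087988-55088147, plus strand: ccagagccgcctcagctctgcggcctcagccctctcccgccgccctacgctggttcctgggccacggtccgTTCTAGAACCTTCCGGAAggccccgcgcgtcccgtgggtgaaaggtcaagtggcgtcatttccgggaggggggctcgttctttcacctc
Hspb1, chr5:135887759-135887918, plus strand: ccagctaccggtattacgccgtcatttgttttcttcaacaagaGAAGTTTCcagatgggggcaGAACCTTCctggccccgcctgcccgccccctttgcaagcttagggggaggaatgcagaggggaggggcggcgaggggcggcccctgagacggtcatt

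The promoters of Hspa1a and Hspa1b differed at 4 of 300 bases, and both held GAANNTTC with its first base at position -104 from the start. The match lay at -124 for Dnaja1 and at -33 for the first window of Hsph1, which held another pair of matches after the start, at 37 and 42. Hspb1 held 2 matches, at -117 and -97. Hspe1 held 3 overlapping matches, at -89, -84 and -79. The same run of letters lay in the second window of Hspd1, at -144, -139 and -134, because the 2 genes lie head to head on chromosome 1. In the GENCODE M21 annotation of GRCm38, Hspa1a (chr17:34969190-34972156) and Hspa1b (chr17:34956436-34959238) are neighbours on the minus strand. The other genes lie at chr5:149614287-149636376 (Hsph1), chr8:83608193-83612653 (Dnajb1), chr4:40722150-40737149 (Dnaja1), chr12:110690605-110702728 (Hsp90aa1), chr9:40800984-40810087 (Hspa8), chr1:55088132-55091307 (Hspe1), chr1:55077835-55088243 (Hspd1) and chr5:135887919-135889563 (Hspb1).

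Near-identical copies limit some of these counts. In the last 500 bases of the coding transcript, where 3′ reads fall, no 90-base window of Hspa1a or Hspa1b occurred in another gene, although 49.3% of the windows along the whole Hspa1a transcript also occurred in Hspa1b. Of the windows in the last 500 bases, 79.8% of those of Hspa8 occurred in 8 other annotated genes and 7.06% of those of Hspb1 in 1 other gene. Counts of Hspa8 are uncertain to that extent. Hspa1a and Hspa1b are given separately and as a pair, their summed UMIs.

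After filtering, the callus libraries held 6714 control and 6890 GC cells, with medians of 4229 and 3301 UMIs per cell, and the trabecular libraries held 3832 and 4604 cells, with medians of 6323.5 and 5644. Pairs of libraries shared 7 to 15 called barcodes. The callus label was borne out by the cartilage gene Col2a1, at 41895 and 27680 CPM in the control and GC callus against 0.655 and 2.86 CPM in trabecular bone. Trabecular libraries were dominated by neutrophils (S100a8 at 89342 and 70020 CPM), and the osteoblast gene Bglap was at 8.85 and 0.392 CPM there. Cells were grouped into classes named from marker genes as "X-like". Clusters that met no name keep a number, and they took 12.2% of the cells of the control callus, 28.8% of the GC callus, and 1.77% and 1.72% in trabecular bone. The heat shock genes were left out of the clustering.

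The 10 genes divided the cell classes in different ways. The mitochondrial chaperonin genes peaked in osteoclast-like cells of callus and in early myeloid progenitors of trabecular bone. In callus, Hspb1 was highest in chondrocyte-like and endothelial cells and the inducible pair in endothelial and stromal cells. Among ranked classes of control trabecular bone, the pair was highest in monocyte- or macrophage-like cells and Hspb1 was near 0 in each. Classes of at least 15 cells were ranked, which left out the 13 stromal or skeletal progenitor-like cells of control trabecular bone. The 12 of these with under 5 pair UMIs had the pair at 136 CPM (76.1-224) and Hspb1 at 236 CPM (154-345). This pair value leaves out the 1 cell with more and so is low for the class.

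Hspe1 was at 556 CPM (526-588) in osteoclast-like cells of the control callus, and the next class, T or NK cell-like, was at 236 CPM (210-264), so the intervals did not overlap. Hspd1 had the same first and second class, at 692 (659-727) and 202 CPM (178-228). In the GC callus, osteoclast-like cells were again first, at 544 CPM for Hspe1 and 573 CPM for Hspd1. These are the bone-resorbing cells, which are rich in mitochondria. In trabecular bone, promyelocyte or granulocyte-monocyte progenitor-like cells were first for both genes, at 387 (control) and 465 CPM (GC) for Hspe1 and at 350 and 473 CPM for Hspd1. In the control library their Hspe1 interval overlapped that of erythroid-like cells, at 373 CPM. Neutrophil-like cells were last for both genes in all 4 libraries, with Hspe1 at 22.9 and 19.1 CPM in callus and at 9.38 and 9.32 CPM in trabecular bone. Across classes Hspe1 and Hspd1 were also the most alike of all pairs among the 10 genes, with a Pearson r of 0.90 over 43 points, each 1 named class in 1 library. Points of a library share its depth and free RNA, so the value is a description.

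Hspa8 was first in endothelial- or pericyte-like cells of the control callus, at 1412 CPM (1325-1504), ahead of stromal or skeletal progenitor-like cells at 981 CPM (951-1012). In the GC callus the stromal class was first, at 846 CPM. In trabecular bone, monocyte- or macrophage-like cells led the control library at 1423 CPM (1380-1466), and progenitor-like cells led the GC library at 1763 CPM (1731-1796). Neutrophil-like cells were last in each library, at 130 and 140 CPM in callus and at 251 and 354 CPM in trabecular bone.

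Hsp90aa1 was highest in osteoclast-like cells of the control callus, at 641 CPM (608-674), apart from monocyte- or macrophage-like cells at 487 CPM (441-535). In control trabecular bone, erythroid-like cells, at 777 CPM (748-807), came ahead of progenitor-like cells, at 720 CPM (696-745). Dnaja1 was highest in mast cell- or basophil-like cells of trabecular bone, at 961 CPM (842-1093) in the control and 835 CPM (748-930) in the GC library, apart from the next class in both. In the control callus its first classes, endothelial- or pericyte-like (343 CPM) and osteoclast-like (296 CPM), had overlapping intervals. Dnajb1 had the narrowest range over classes of the 10 genes in both control libraries. Its highest and lowest levels differed 4.40-fold in callus, and 2.10-fold in trabecular bone, where they were 139 CPM in plasmacytoid dendritic cell-like and 66.1 CPM in erythroid-like cells. Hsph1 reached 44.7 CPM in stromal cells of the control callus and 33.2 CPM in erythroid-like cells of control trabecular bone, and was at 2.86 and 0.447 CPM in the neutrophils of these libraries.

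Hspb1 was highest in chondrocyte-like cells of both callus libraries. In the control and GC callus it was at 329 and 324 CPM in those cells, at 258 and 219 CPM in endothelial- or pericyte-like cells, at 195 and 133 CPM in stromal cells and at 192 and 137 CPM in osteoblast- or osteocyte-like cells. The 50 progenitor-like cells of the GC callus were at 203 CPM (166-246). They formed a cluster found in that library alone, which also passed 12 chondrocyte markers, so the value cannot be read as that of progenitors. Neutrophil-like cells of the callus were at 25.3 and 15.8 CPM. The control callus droplets without a cell held 245 CPM (214-278) of Hspb1, close to the 260 CPM of its cells. The low level in blood cells of the callus thus cannot be told apart from free RNA. Control endothelial cells, at 258 CPM, lay within that interval, and stromal and osteoblast-like cells, at 195 and 192 CPM, lay under it. The part of free RNA in these classes was not tested. In trabecular bone all cells together were at 1.40 (control) and 2.83 CPM (GC). The highest ranked class of the control library, T or NK cell-like, rested on 1 UMI, but the 36 GC stromal or skeletal progenitor-like cells were at 273 CPM (213-346).

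The inducible pair was highest in endothelial- or pericyte-like cells of the control callus, at 243 CPM (208-283), followed by stromal cells at 165 CPM (153-178). In the GC callus stromal cells came first, at 106 CPM (94.3-119). Among ranked classes of control trabecular bone, monocyte- or macrophage-like cells were first, at 66.2 CPM (57.4-76.0), ahead of progenitor-like cells at 20.5 CPM. In GC trabecular bone, the 35 stromal cells with under 5 pair UMIs were at 112 CPM (73.5-162), a value that leaves out the 1 stromal cell with more. Monocyte- or macrophage-like cells, with their 4 cells of at least 5 pair UMIs kept, were at 31.7 CPM. Droplets without a cell held the pair at 47.4 CPM (34.6-63.5) in the control callus. In trabecular bone they held 17.2 CPM (7.43-33.9) in the control and 5.89 CPM (1.22-17.2) in the GC library. The share of free RNA in the cells was not measured, so its part in the levels of the pair was not tested. The heat map of levels by class shows the orders of classes, without the trabecular stromal cells. Under other clusterings, totals and depths, the first class of control trabecular bone was the same for as few as 5 of the 10 genes.

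**Figure D1:**
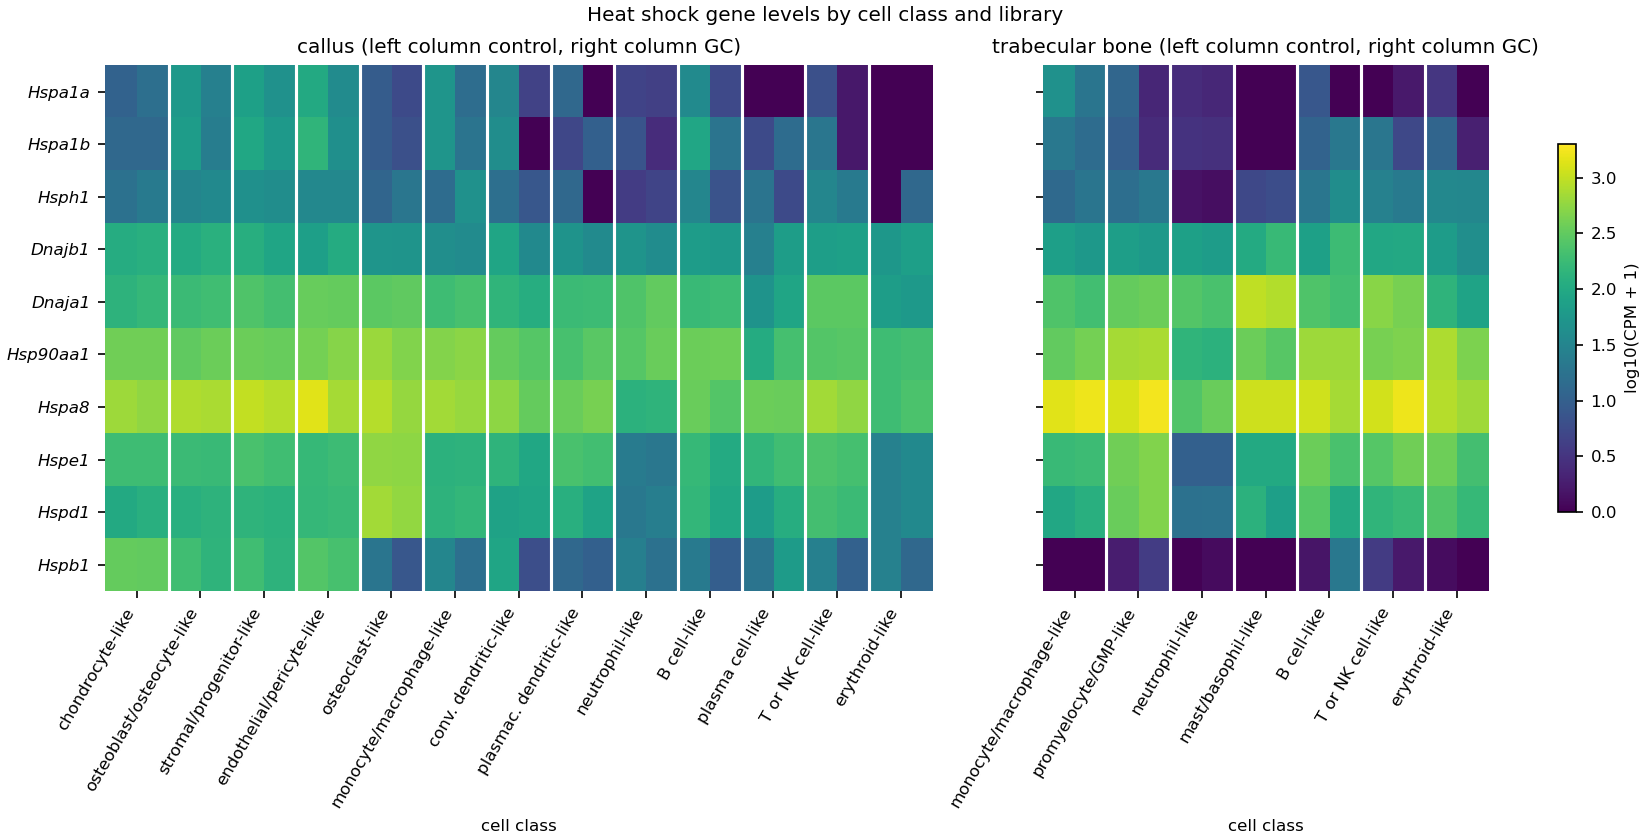
Levels of the 10 heat shock genes by cell class, in callus and trabecular bone. Each class has a column for the control and a column for the GC library, and color gives log10(CPM + 1). In callus Hspb1 is brightest in chondrocyte-like and endothelial classes, and Hspe1 and Hspd1 are brightest in osteoclast-like cells of callus and progenitor-like cells of trabecular bone.

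Between the tissues, over all cells of the control libraries, Hspb1 had the ratio furthest from 1 of the 10 genes. It was at 260 CPM in callus and 1.40 CPM in trabecular bone, a ratio of 186 (140-252). Hspa1b was at 21.7 and 7.08 CPM (ratio 3.07, 2.68-3.52). With a 2-fold threshold on log2 of CPM plus 5 and at least 50 UMIs, these 2 of 10 genes were higher in callus and 0 were lower, against 17.4% and 9.68% of the 14690 genes tested. The median log2 ratio of the 10 genes was 0.35 against 0.16 for all genes. The classes that make up the 2 tissues differ, and the share of the difference due to them was not tested.

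Over all cells, GC-treated and control libraries differed little in most of the 10 genes. No gene was 2-fold higher or lower in the GC library in either tissue. In callus the background was 0.225% of 15119 genes higher and 0.337% lower, and in trabecular bone 0.469% of 12151 genes higher and 0.584% lower. The median log2 ratio of the 10 genes was -0.05 in callus (all genes 0.03) and -0.02 in trabecular bone (all genes -0.02).

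Hspa1a was at 17.5 CPM in the control and 15.3 CPM in the GC callus, and at 8.57 and 3.51 CPM in trabecular bone. Hspa1b was at 21.7 and 15.7 CPM in callus and at 7.08 and 3.46 CPM in trabecular bone. Both genes were lower with GC in both tissues. The pair's ratio of GC to control was 0.789 (0.744-0.837) in callus, and 0.446 (0.383-0.517) in trabecular bone, where the levels were 15.7 and 6.98 CPM. The trabecular ratio did not count as 2-fold in either gene because the 5 CPM added to both levels draws low genes toward no difference.

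Hspa8 went opposite ways in the 2 tissues. It was at 667 and 561 CPM in the control and GC callus (ratio 0.841, 0.830-0.853), and at 707 and 908 CPM in trabecular bone (ratio 1.28, 1.26-1.31). Dnaja1 did the reverse at smaller size, with 156 and 182 CPM in callus (1.17, 1.14-1.20) and 261 and 244 CPM in trabecular bone (0.935, 0.908-0.963). Hsph1 was higher with GC in both tissues, at 18.5 and 23.2 CPM in callus and at 9.04 and 11.3 CPM in trabecular bone, and its ratio was 1.25 in each. Hspd1 was also higher in both, with ratios of 1.14 and 1.19. Hsp90aa1 (0.978 and 0.942), Hspe1 (0.954 and 1.03) and Dnajb1 (1.03 and 0.881) had ratios closer to 1. Hspb1 was at 260 and 218 CPM in callus (0.840, 0.821-0.859) and at 1.40 and 2.83 CPM, from 48 and 107 UMIs, in trabecular bone (2.02, 1.42-2.90).

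Within classes, the inducible pair was lower with GC in most. Of the 9 classes and clusters of callus with at least 50 pair UMIs, 7 were lower with GC, 6 of them with an interval below 1, and 2 were higher. In trabecular bone all 5 were lower, 4 of them with an interval below 1. The minimum counted both libraries together, and erythroid-like cells reached it with 46 control and 4 GC UMIs. In these 5 the median log2 ratio of all genes ran from -0.61 in erythroid-like to 0.10 in neutrophil-like cells. The counts of direction, here and for the other heat shock genes below, were not set against those of all genes.

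In callus B cell-like cells the pair was at 127 CPM in the control and 22.1 CPM in the GC library (ratio 0.174, 0.0953-0.295). Hspa1a and Hspa1b were the 2 of 8 tested genes that were at least 2-fold lower there, against 6.02% of all genes tested. In endothelial- or pericyte-like cells the pair was at 243 and 80.6 CPM (0.331, 0.262-0.418), and it supplied the 2 of 10 genes called lower (all genes 5.50%). In this class, the 54 cells of cluster 21 were in the GC library alone and also passed 6 markers of hypertrophic chondrocytes. The 2 libraries thus compare different mixes of cells there, and the part of this in the ratio was not tested. In monocyte- or macrophage-like cells it was at 103 and 31.5 CPM (0.307, 0.189-0.482), and again supplied the 2 of 8 genes called lower (all genes 1.63%). In osteoblast- or osteocyte-like cells the pair was at 121 and 50.7 CPM (0.420, 0.358-0.493), and Hspa1b was the 1 of 10 genes called lower (all genes 0.330%). Each of these classes had the lower level in the GC library.

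The unnamed cluster 6 was led by Chil3 and Lyz2 and passed 8 of 8 monocyte markers. Cells with monocyte markers thus also lay outside the monocyte- or macrophage-like class of callus. In cluster 6 the pair was at 43.8 and 10.5 CPM (0.239, 0.138-0.393), and Hspa1a and Hspb1 were the 2 of 9 genes called lower (all genes 2.30%). Of its 514 control cells, 6 held 86.3% of the 102 pair UMIs, and without cells of at least 5 pair UMIs the direction turned, to 6.10 CPM in the control and 10.5 CPM in the GC library. Stromal cells had the pair at 165 and 106 CPM (0.642, 0.559-0.737), with 0 of 10 genes called lower (all genes 1.25%). The log2 ratio of the stromal pair, -0.62, moved with the cells kept and was -1.80 with at most 5% mitochondrial UMIs. Chondrocyte-like cells were an exception, at 21.9 and 26.9 CPM (1.23, 1.12-1.35), with 0 of 10 genes called lower (all genes 0.416%). The class pools cluster 3 (920 control and 331 GC cells), cluster 5 (588 and 418) and the hypertrophic cluster 2 (639 and 648). The part of this mix in the ratio was not tested. The other exception was cluster 1, an unnamed cluster of 90 control and 1270 GC cells led by matrix genes such as Fn1 and Col1a2, where the pair was at 9.23 and 24.6 CPM (2.67, 1.49-5.26). Hspa1b was the 1 of 10 genes called higher there (all genes 5.59%). The median UMIs per cell of cluster 1 were 13180 in the control and 2903.5 in the GC library, and the part of this in the result was not tested.

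In trabecular bone, progenitor-like cells had the pair at 20.5 CPM in the control and 2.83 CPM in the GC library (0.138, 0.0784-0.230). Hspa1a and Hspa1b were the 2 of 9 genes called lower, against 0.227% of all genes. Of the 229 control cells, 6 held 63.9% of the pair UMIs, and without such cells the control was at 7.71 CPM. In monocyte- or macrophage-like cells the pair was at 66.2 and 31.7 CPM (0.479, 0.376-0.608), and Hspa1a was the 1 of 9 genes called lower (all genes 0.543%). Erythroid-like cells were at 13.3 and 0.957 CPM (0.0721, 0.0189-0.198), but the median gene of that class was itself lower with GC by 0.61 on the log2 scale. The control value rested on 46 UMIs in 13 of 327 cells, 4 of which held 78.3%, and without those 4 cells it was 3.02 CPM. Neutrophil-like cells differed by less than the counting error, at 3.69 and 3.25 CPM (0.880, 0.612-1.26), with 0 of 8 genes called lower (all genes 0.310%). Different clusters held most neutrophils of the control and GC trabecular libraries.

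Immediate early genes, such as Fos and Jun, respond to tissue digestion as heat shock genes do. Over all cells, the sum of these immediate early genes was lower with GC. It was at 8575 and 7011 CPM in callus and at 6115 and 5747 CPM in trabecular bone. This sum went the same way as the pair in 8 of the 9 callus classes and clusters and in 3 of the 5 trabecular ones. That count was not set against the fall of the sum over all cells. From control to GC, the sum of 16 such genes went from 5736 to 3259 CPM in callus B cells, from 10113 to 7833 CPM in endothelial cells, from 5737 to 4292 CPM in monocytes, from 11682 to 10056 CPM in osteoblast-like cells and from 12311 to 8868 CPM in stromal cells. The callus exception was chondrocyte-like cells, where the pair was higher with GC and the sum went from 8765 to 7644 CPM. In trabecular bone it went from 8808 to 8159 CPM in monocytes. It went from 3186 to 3326 CPM in progenitors and from 3988 to 4554 CPM in the unnamed cluster 28, where the pair was lower and the sum was not. The part of these genes in the result was not tested.

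A few cells held most of the pair's RNA. In the control callus, 3172 pair UMIs lay in 780 of 6714 cells, and 135 cells with at least 5 pair UMIs held 69.9% of them. In the GC callus, 1745 UMIs lay in 677 of 6890 cells, and 77 such cells held 49.7%. The limit of 5 UMIs was chosen after the values were seen. Without these cells the pair was at 12.2 CPM in the control and 16.0 CPM in the GC callus, so the direction over all callus cells turned. That step removes the highest values of both libraries by construction.

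The control B cell value rested on 172 UMIs in 17 of 633 cells, 7 of which held 93.6%. In the GC library, 15 UMIs lay in 4 of 391 B cells. The control monocyte value rested on 90 UMIs in 8 of 182 cells, and a single cell held 75 of them. Without cells of at least 5 pair UMIs, the direction turned in monocytes, to 11.7 CPM in the control and 25.4 CPM in the GC library. In endothelial cells of the control, 5 of 65 cells held 83.9%, and without such cells the pair was at 45.7 CPM in the control and 54.5 CPM in the GC library. The ratios of these classes thus rest on a handful of cells, and their Poisson intervals are too narrow for that.

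In stromal and osteoblast-like cells the high cells were more numerous. Among stromal cells, 40 of 236 (16.9%, exact binomial 12.4-22.4) had at least 5 pair UMIs in the control and 15 of 179 (8.38%, 4.77-13.4) in the GC library. Among osteoblast- or osteocyte-like cells, the numbers were 28 of 189 (14.8%, 10.1-20.7) and 13 of 243 (5.35%, 2.88-8.97). In chondrocyte-like cells they were 36 of 2147 (1.68%, 1.18-2.31) and 39 of 1397 (2.79%, 1.99-3.80). Neutrophil-like cells of the callus had 0 of 1701 (upper limit 0.217%) and 0 of 1383 (upper limit 0.266%), but at medians of 1304 and 1175 UMIs per cell, against 14707.5 and 13111 in stromal cells, so this limit was not comparable between the classes and the part of free RNA was not tested. Without the high cells, stromal cells were at 21.4 and 44.8 CPM, osteoblast-like cells at 21.2 and 20.4 CPM, and chondrocyte-like cells at 11.9 and 11.3 CPM. The control values lay under the 47.4 CPM of the pair in control callus droplets without a cell. The part of free RNA in these values was not tested. The GC callus file lists no empty droplets to compare.

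Depth per cell differed between libraries, so each cell was also thinned to 1000 UMIs, leaving out 461 control and 689 GC callus cells that had fewer. At that depth, 47 of 6253 control callus cells (0.752%, 0.553-0.998) and 26 of 6201 GC callus cells (0.419%, 0.274-0.614) had at least 2 pair UMIs. Osteoblast-like cells had 8 of 185 (4.32%, 1.89-8.34) and 1 of 241 (0.415%, 0.0105-2.29). Stromal cells had 11 of 234 (4.70%, 2.37-8.26) and 5 of 178 (2.81%, 0.918-6.43). Control and GC intervals overlapped over all callus cells and in both classes. Neutrophil-like cells had 0 of 1414 and 0 of 1012. In trabecular bone, unthinned, 26 of 3832 control (0.678%, 0.444-0.993) and 5 of 4604 GC cells (0.109%, 0.0353-0.253) had at least 5. Progenitor-like cells had 6 of 229 and 0 of 291, and monocyte- or macrophage-like cells 10 of 233 and 4 of 253. After thinning, the trabecular libraries had 5 of 3741 and 3 of 4510 cells with at least 2, too few to tell apart.

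**Figure D2:**
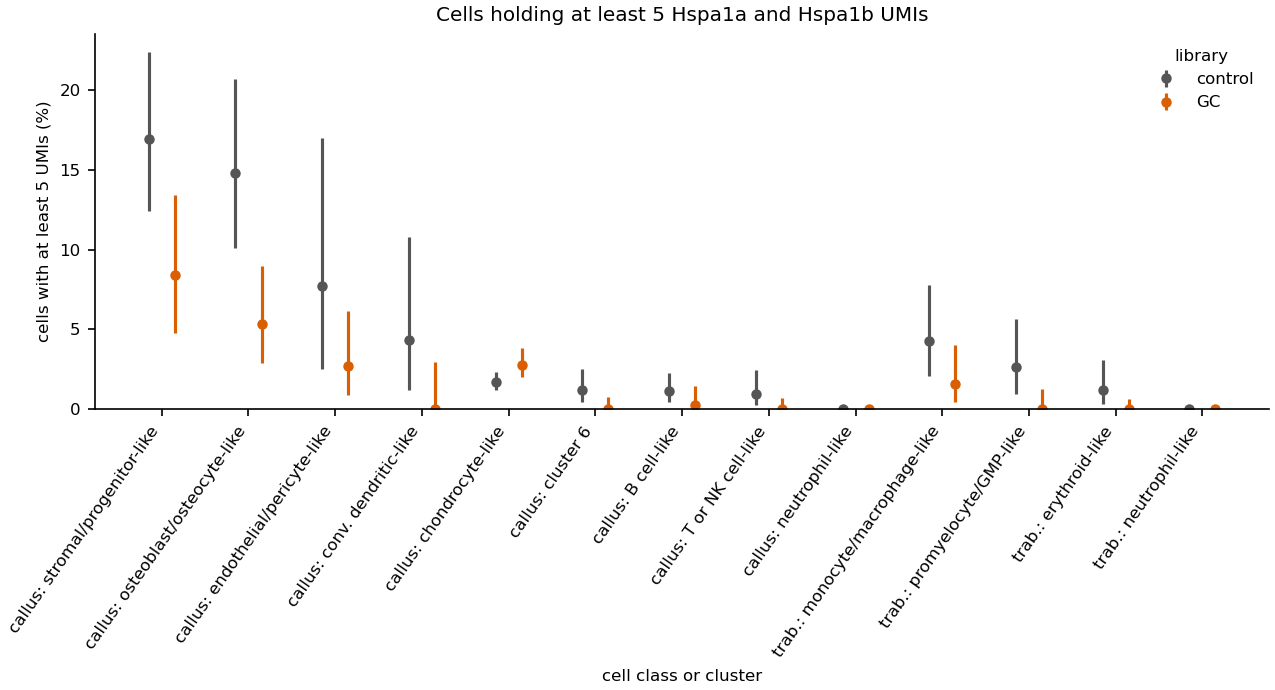
Share of cells with at least 5 Hspa1a and Hspa1b UMIs, by class and library, in percent. Points are shares and bars are exact 95% binomial intervals. Stromal cells of the control callus are at 16.9% and osteoblast- or osteocyte-like cells at 14.8%, against 8.38% and 5.35% in the GC callus.

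In some callus classes the high cells also carried more of several other heat shock genes, which the limit did not use. In stromal cells of the control callus, cells at or over the limit had Hspa8 at 1473 CPM against 865 CPM in the rest. Hsph1 was at 76.6 against 37.2 CPM, Dnajb1 at 212 against 94.6 CPM, and Dnaja1 at 354 against 215 CPM, each with intervals apart. Hspd1 was apart as well, at 178 (149-210) against 131 CPM (119-144), while Hspe1, Hspb1 and Hsp90aa1 had overlapping intervals. Median UMIs per cell of the 2 sets were 14662.5 and 14707.5, and the summed immediate early genes were at 19537 and 10612 CPM.

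In stromal cells of the GC callus, where 15 cells passed the limit, the high cells had Hspa8 at 912 against 836 CPM, Hsph1 at 26.6 against 42.0 CPM and Dnaja1 at 165 against 215 CPM, all with overlapping intervals, and Hspb1 at 194 (152-244) against 123 CPM (110-138). These 2 sets differed in depth, with medians of 19582 and 12861 UMIs per cell. The difference between the libraries in this was not tested. Immediate early genes still differed, at 13267 and 8194 CPM. In chondrocyte-like cells, high cells of both libraries had more Hspa8 (961 against 645 CPM in the control, 962 against 558 CPM with GC) and more Dnaja1 (198 against 133 CPM and 255 against 153 CPM). Dnajb1 was apart in the GC library alone (238 against 118 CPM), and Hspb1 in the control alone (526 against 326 CPM). Hspe1 and Hspd1, the mitochondrial pair, had overlapping intervals in both libraries. The sum of immediate early genes was at 17127 against 8616 CPM and at 22116 against 7210 CPM, and its part in the result was not tested. In monocyte- or macrophage-like cells of control trabecular bone, the 10 high cells had Hspa8 at 1471 (1285-1676) against 1420 CPM (1377-1464). Intervals of the other heat shock genes overlapped there too. The 4 such cells of the GC library had Dnajb1 apart, at 150 (72.0-276) against 53.9 CPM (46.3-62.4).

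**Figure D3:**
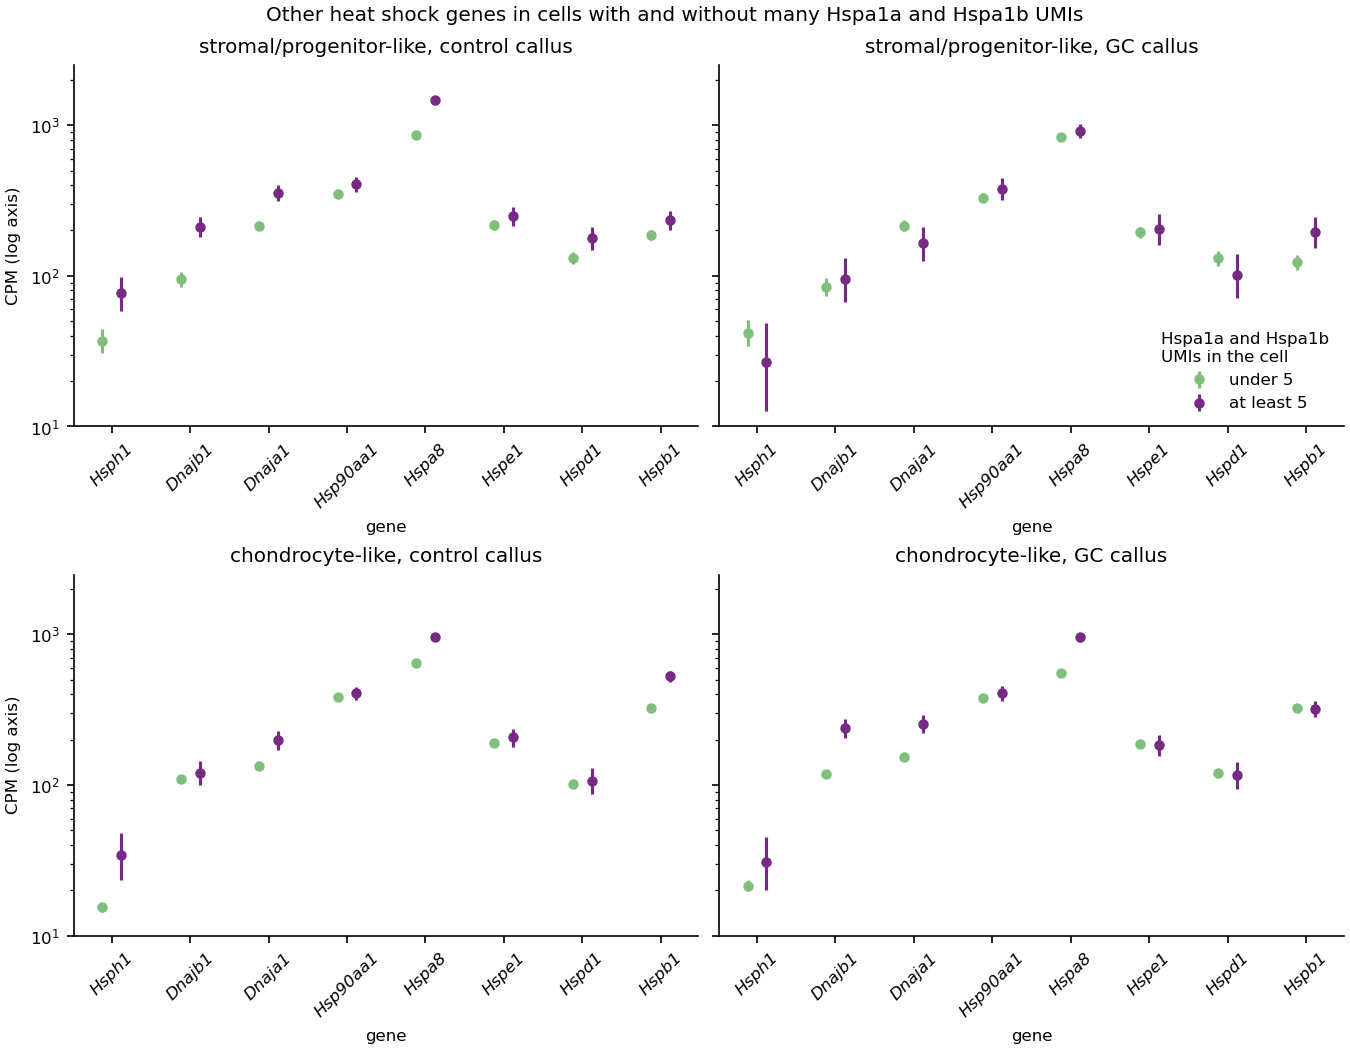
CPM (log axis) of the other heat shock genes in callus cells with at least 5 and with under 5 Hspa1a and Hspa1b UMIs, for stromal and chondrocyte-like cells of each library. Bars are 95% Poisson intervals. Hspa8 is higher in the high cells of both chondrocyte panels and of the control stromal panel.

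Constitutive Hspa8 differed between tissues at the level of classes too. In callus, 13 of 16 classes and clusters over the UMI minimum were lower with GC, 10 with an interval below 1 and 1 with an interval above. Endothelial- or pericyte-like cells had the lowest ratio, with 1412 CPM in the control and 718 CPM in the GC library (0.508, 0.467-0.554). Its log2 ratio, -0.97, ranged from -1.11 to -0.18 over other settings and was nearest 0 with at most 5% mitochondrial UMIs. Cluster 21 of this class was present in the GC library alone. Cluster 6 was at 605 and 335 CPM (0.554, 0.503-0.609), osteoclast-like cells at 861 and 604 CPM (0.702, 0.653-0.754) and chondrocyte-like cells at 651 and 570 CPM (0.875, 0.859-0.891). In trabecular bone 6 of 9 were higher, each with an interval above 1. Neutrophil-like cells were at 251 and 354 CPM (1.41, 1.36-1.47), progenitor-like cells at 1268 and 1763 CPM (1.39, 1.35-1.44), T or NK cell-like cells at 1179 and 1631 CPM (1.38, 1.25-1.54) and monocyte- or macrophage-like cells at 1423 and 1646 CPM (1.16, 1.11-1.20). Erythroid-like cells were lower, at 847 and 673 CPM, in the class whose median gene was lower by 0.61, and at 0.28 on the log2 scale after centring on that gene.

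Hsp90aa1 was lower with GC in osteoclast-like cells, at 641 and 475 CPM (0.741, 0.682-0.804), and in trabecular erythroid-like cells, at 777 and 447 CPM. The log2 ratio of the latter, -0.79, was near the -0.61 of the class's median gene, and was -0.18 after centring on that gene and -0.00 with at least 500 genes per cell. Hsp90aa1 was higher in callus neutrophil-like cells, at 269 and 353 CPM (1.31, 1.18-1.47), and in endothelial- or pericyte-like cells, at 410 and 502 CPM (1.22, 1.07-1.41), where Hspa8 was lower. The part of cluster 21, found in the GC library alone, in the endothelial ratio was not tested. Dnaja1 was higher with GC in 11 of 14 callus classes and clusters, 4 of them with an interval above 1. Among these, chondrocyte-like cells were at 134 and 155 CPM (1.16, 1.12-1.21) and neutrophil-like cells at 245 and 317 CPM (1.29, 1.15-1.45). Stromal cells went the other way, at 242 and 208 CPM (0.860, 0.775-0.954), but turned to 0.34 on the log2 scale with at most 5% mitochondrial UMIs. In trabecular neutrophils Dnaja1 was lower, at 262 and 224 CPM (0.854, 0.819-0.890). Different clusters also held most callus neutrophils of each library. Cluster 4 had 1029 control and 48 GC cells, and cluster 0 had 538 and 1164. The part of this in the callus neutrophil ratios of Hsp90aa1 and Dnaja1 was not tested.

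Hspb1 was lower with GC in 10 of 11 callus classes and clusters over the minimum, 7 of them with an interval below 1. Blood cell classes are among these, where its level could not be told apart from free RNA. The GC callus file lists no empty droplets, so free RNA was not compared between the callus libraries. Its part in the Hspb1 ratios of the other classes was not tested. In stromal cells Hspb1 was at 195 and 133 CPM (0.680, 0.600-0.770). In osteoblast-like cells it was at 192 and 137 CPM (0.713, 0.641-0.793), a difference that turned to 0.15 on the log2 scale with finer clusters. Chondrocyte-like cells were level at 329 and 324 CPM (0.984, 0.960-1.01). In conventional dendritic cell-like cells, Hspb1 (86.6 and 5.15 CPM, 52 and 3 UMIs) and Dnajb1 (84.9 and 36.0 CPM) were the 2 of 7 genes called lower, against 3.05% of all genes, and the log2 ratio of Dnajb1 turned to 0.17 with a mean of per-cell CPM. In cluster 19, of cycling cells with chondrocyte and myeloid genes, Hspb1 was the 1 of 8 genes called lower (140 and 41.1 CPM), against 8.95%. Trabecular B cell-like cells numbered 16 in the GC library, where Dnajb1 (9 UMIs) was the 1 of 6 genes called higher against 6.60%, and Hspd1 (5 UMIs) the 1 of 6 called lower against 36.6%. All 16 were of cluster 21, which had 56 control cells. Clusters 16 and 19 of this class had 177 and 78 control cells and 0 GC cells. The part of this mix in the calls was not tested.

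Other chaperones differed in the same small range. Over all cells, 0 of 19 further HSF1 target genes passed 2-fold in either tissue, with median log2 ratios of 0.04 in callus and 0.05 in trabecular bone (all genes 0.03 and -0.02). Among them Cryab, a small heat shock protein like Hspb1, was at 167 and 100 CPM in callus, and Hspb8 at 26.3 and 34.8 CPM. Hsf1 itself was at 16.6 and 15.3 CPM in callus and at 9.01 and 10.6 CPM in trabecular bone. All 8 subunits of TRiC, the cytosolic chaperonin, were below 0 in callus (median -0.14), and 7 of 8 were above 0 in trabecular bone (median 0.13). ER chaperones had medians of -0.28 in callus and 0.24 in trabecular bone, where 10 of 10 were above 0. Hspa8 had the same signs as these 2 lists. The counts above or below 0 were not set against those of all genes, and no list was tested against the others.

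Of the 11 cytosolic co-chaperones, 9 were above 0 in callus (median 0.13) and 8 in trabecular bone (median 0.09). These counts were not set against those of all genes either. Fkbp5, an HSP90 co-chaperone of the glucocorticoid receptor and a known target of it, was the 1 gene past 2-fold, at 15.9 and 60.3 CPM in trabecular bone, a ratio of 3.79 (3.45-4.17), and it was at 19.5 and 31.0 CPM in callus (1.59, 1.48-1.70). Of the other mitochondrial chaperones, 0 of 6 passed 2-fold in either tissue. Hspa9, the mitochondrial HSP70, was at 138 and 177 CPM in callus and 56.3 and 62.5 CPM in trabecular bone, higher with GC in both, as Hspd1 was. Of the 16 immediate early genes 1 passed 2-fold in callus, Ier3, at 708 and 168 CPM.

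Genes with the most similar pattern to Hspa8 over the 43 points, among 6564 genes, were Cmc1 (Pearson r 0.88), Cct4 (0.88), Nudc (0.87), Rex1bd (0.85) and Polr2h (0.84). Cct4 encodes a TRiC subunit and Nudc a co-chaperone. For Hspa1a they included Dock1 (0.83), Lima1 (0.81), Itgb5 (0.79) and Sash1 (0.78), after leaving out the heat shock genes. These values describe the points, which share libraries and depth.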

How the data were processed

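The deposited files are matrices of UMI counts per gene and barcode, which the authors made with Cell Ranger (5.0.1 in the submitters' processing notes, 4 in the matrix headers) on mm10; Seurat 3.2.0 is also named there. The GC callus file lists 7762 barcodes, each of at least 500 UMIs, and the other files list all barcodes, so cells were called in the latter from the barcode ranks and the profile of empty droplets. Total UMIs per file were 41239842 to 95852254. Cells needed at least 200 genes and at most 10% mitochondrial UMIs, and simulated-doublet scores removed 125 to 428 cells per library.

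Cells of each tissue were clustered (scikit-learn 1.9.0, leidenalg 0.10.2, resolution 1, 84 heat shock, chaperone and immediate early genes left out). Clusters were named from 189 markers of 23 classes, and the rule of naming was settled after clusters were seen. UMIs were summed per class and library. Ratios have exact conditional intervals and shares exact Clopper-Pearson intervals, at 95% and for counting error only. A gene counted as past 2-fold on log2((CPM + 5)/(CPM + 5)) where both libraries together held at least 50 UMIs. The rule for named genes took all 10 genes, allowed any gene of the chaperone and immediate early lists with its value, and added the 5 genes most like Hspa1a and Hspa8. Some results that fall under these rules are not reported here. On simulated counts for callus without class differences, 81.0% of 200 genes changed 4-fold were recovered over all cells (14985 genes) with 0 unchanged genes called, and 100% in monocyte- or macrophage-like cells (4513 genes) with 6 unchanged genes called. The simulated sums held counting error only. They thus do not show how often genes are called where cells or libraries vary, or where a few cells hold most UMIs.

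Promoter and transcript sequences came from RefSeq (GRCm38.p6) and GENCODE M21. The 10 genes and the gene lists were chosen with earlier results of these data known. The alternatives tried were other pseudocounts, thresholds, minimums, totals, cell filters, clusterings and weightings.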

Additional observations from a re-analysis of the deposited data

Results flagged for a closer look

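Of the 10 heat shock genes, 3 had ratios of GC to control on opposite sides of 1 in callus and trabecular bone, over all cells, with both counting intervals away from 1. The log2 ratio of Hspa8 was -0.25 in callus and 0.36 in trabecular bone. The log2 ratio of Dnaja1 was 0.22 in callus and -0.09 in trabecular bone. The log2 ratio of Hspb1 was -0.25 in callus and 0.29 in trabecular bone, where it rested on 48 control and 107 GC UMIs, and 69 of the latter lay in 36 stromal or skeletal progenitor-like cells. With 1 library per group, the difference between the tissues was not tested for any of the 3 genes.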

How the results depend on the processing

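Counts of genes at least 2-fold lower with GC, summed over named classes, were 9 in callus and 4 in trabecular bone, and of those higher, 0 and 1. Callus classes with such lower calls had 0.330% to 6.02% of all genes tested called lower. Trabecular classes with them had 0.227% to 36.6%, the last in B cell-like cells. The 1 higher call was also in B cell-like cells (all genes 6.60%). Shares over all genes are not given for the summed counts or for the other settings. The callus count lower was 16 at 1.5-fold, 14 with at least 20 UMIs, 1 with at least 200 UMIs, 2 with cells thinned to 1000 UMIs, and 2 without cells of at least 5 pair UMIs. The callus count higher was 1 with a pseudocount of 1 CPM, at 1.5-fold and with per-cell means, and 2 with at least 20 UMIs and with up to 20% mitochondrial UMIs. The trabecular count lower was 1 with a pseudocount of 20 CPM, 12 at 1.5-fold, 2 with at least 200 UMIs, at resolution 2 and with marker folds over the mean, and 1 without cells of at least 5 pair UMIs. The trabecular count higher was 2 at 1.5-fold and 0 with at least 200 UMIs, thinning, every barcode of at least 1000 UMIs, at most 5% mitochondrial UMIs, and at least 500 genes. Over all trabecular cells, 0 genes were lower, and 1 was with a pseudocount of 1 CPM or at 1.5-fold. Between tissues, 2 genes were higher in callus, and 1 was with a pseudocount of 20 CPM or centred on the median gene, and 4 were at 1.5-fold, with per-cell means and with thinning; 0 were lower, and 1 was at 1.5-fold. The class with the highest level of a gene was also compared with that under the reported settings. In control trabecular bone it was the same for 6 of 10 genes with mitochondrial, ribosomal and hemoglobin UMIs left out and with per-cell means, and for 5 with thinning, at resolutions 0.5 and 2, with list genes kept in the clustering and with marker folds over the mean. In control callus it was the same for 6 with marker folds over the mean.

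Leaving out cells with at least 5 pair UMIs, which was chosen after seeing the data, turned the log2 ratio of the pair to 0.29 over all callus cells (Hspa1a 0.17, Hspa1b 0.27), to -0.04 in chondrocyte-like cells (Hspa1a -0.08), to 0.23 in endothelial- or pericyte-like cells (Hspa1b 0.47) and to 0.92 in stromal cells (Hspa1a 0.77, Hspa1b 0.83). That step takes the highest values away by construction. In trabecular bone the pair stayed lower without those cells, at -0.29 over all cells, -0.39 in monocytes and -0.70 in progenitors. Over all settings the pair's log2 ratio ranged from -2.49 to -0.70 in trabecular progenitors, and from -1.26 to -0.39 in trabecular monocytes.

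Other reversals, from small to over 1 on the log2 scale, are given as log2 ratios, and the cause was not tested. In trabecular erythroid-like cells Dnajb1 was at 0.01 and Hspa8 at 0.28 after centring, Hspa8 at 0.27 without mitochondrial, ribosomal and hemoglobin UMIs, and with at least 500 genes Dnajb1 was at 0.12, Hspa8 at 0.44 and Hspd1 at 0.13. Between tissues, Hsp90aa1 was at -0.10 after centring, and Hspa8 at 0.09 with per-cell means and 0.04 with thinning. Over all callus cells Hsp90aa1 was at 0.17 with per-cell means and 0.15 with thinning, and Hspe1 at 0.01 with thinning or with classes weighted as in the control. With per-cell means, Dnajb1 was at 0.17 in callus conventional dendritic cells, Hsp90aa1 at 0.02 in trabecular neutrophils and Dnaja1 at -0.01 in progenitors. With thinning, Dnaja1 was at 0.02 in trabecular monocytes, and Dnajb1 and Hsp90aa1 at 0.08 in trabecular neutrophils. In osteoblast-like cells Dnajb1 was at -0.11 at resolution 0.5, and Hspb1 at 0.15 at resolution 2 and 0.07 with at least 500 genes. In stromal cells Dnaja1 was at 0.02 with every barcode of at least 1000 UMIs and at 0.34 with at most 5% mitochondrial UMIs, where Dnajb1 was at 0.50. In callus neutrophils Hspb1 was at 0.35 with doublets kept. Against these, the reported values were -1.13 for Dnajb1 in conventional dendritic cells, -0.54 for Hspb1 in callus neutrophils, -0.42 for Dnajb1 in stromal cells, and -0.59 (Dnajb1), -0.33 (Hspa8) and -0.65 (Hspd1) in erythroid-like cells.

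No paired analysis was possible because each group was 1 library and no test was run, and no group had a second library to leave out.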
